A study of Mus musculus with 6 samples.

Results

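Potassium channel genes were examined in the cochlear modiolus of mice 4 weeks after a loud noise and in mice that never heard it. The members are the genes whose symbol starts with Kcn and that had at least 1 probe set annotated to a single gene, with 1 gene of that prefix set aside. They number 83 of 18193 named genes on the array and are covered by 166 probe sets. Of the 83, 80 code for proteins and 3 are long non-coding RNAs. Each gene is represented by its brightest probe set, the one with the highest mean over all arrays, and the other probe sets serve as a check.

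Spiral ganglion neurons, with their axons and glia, lie in the modiolus, the central pillar of the cochlea. The noise-exposed group was 3 female CBA/CaJ mice of a single litter that spent 5 h at 4 weeks of age in band-limited noise from 5 to 20 kHz at 110 dB SPL. The unexposed group was 3 CBA/CaJ mice of 3 other litters, a male (replicate 1), a female (replicate 2) and a male (replicate 3), which stayed in the holding room. All 6 mice were dissected at 8 weeks of age, the modioli of both ears were pooled, and the RNA of each mouse was amplified and put on 1 Affymetrix array. The 3 noise-exposed mice and unexposed replicate 1 were dissected on 1 day, and unexposed replicates 2 and 3 on another. Litter and exposure therefore cannot be told apart, and sex and day are each balanced by a single unexposed mouse.

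Potassium channels set the resting potential of neurons and end each action potential. Voltage-gated (Kv) channels are tetramers of pore subunits: the Kv1 family gives low-threshold currents at axons and nodes, Kv3 repolarises fast-spiking auditory neurons, and Kv4 carries a rapidly inactivating A-type current. Beta subunits and the calcium-binding KChIP proteins ride on the cytoplasmic side of Kv1 and Kv4 pores and change their gating and traffic. Inward rectifiers of glia and epithelia take up and recycle potassium, tandem-pore (K2P) channels leak at rest, and BK and SK channels open with calcium. In the cochlea the sound-evoked current is itself carried by potassium, which the stria vascularis secretes into the endolymph through Kcnq1 and Kcne1.

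The stretches before the RefSeq transcript starts of 3 members are shown because these genes encode parts of A-type currents and their differences between the groups had opposite signs, as given further on. They are 250 bases each, read 5′ to 3′ on the strand of the gene from the RefSeq promoter table of build GRCm38.p6. Capitals mark matches on either strand to the GC box GGGCGG and the CCAAT box CCAAT, which do not overlap here. Kcnip2 lies on the minus strand at chr19:45816064-45816313, Kcnd2 on the plus strand at chr6:21215096-21215345 and Kcna4 on the plus strand at chr2:107290339-107290588.
Kcnip2: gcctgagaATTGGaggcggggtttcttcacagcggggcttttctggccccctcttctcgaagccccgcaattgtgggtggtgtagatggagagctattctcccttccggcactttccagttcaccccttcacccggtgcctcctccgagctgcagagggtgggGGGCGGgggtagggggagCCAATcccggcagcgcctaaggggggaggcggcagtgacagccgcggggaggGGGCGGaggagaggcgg
Kcnd2: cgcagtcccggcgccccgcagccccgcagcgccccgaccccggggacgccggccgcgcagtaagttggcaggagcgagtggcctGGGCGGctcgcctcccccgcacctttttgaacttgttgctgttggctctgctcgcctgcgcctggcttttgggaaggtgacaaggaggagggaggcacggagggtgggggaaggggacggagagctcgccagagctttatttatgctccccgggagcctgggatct
Kcna4: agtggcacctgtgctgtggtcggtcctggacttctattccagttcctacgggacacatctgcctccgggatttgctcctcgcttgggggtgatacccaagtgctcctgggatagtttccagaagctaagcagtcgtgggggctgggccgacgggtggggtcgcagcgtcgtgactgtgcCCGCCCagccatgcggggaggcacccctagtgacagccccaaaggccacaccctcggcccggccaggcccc
Kcnip2 held 2 GC boxes and 2 CCAAT boxes, whereas Kcnd2 and Kcna4 held 1 GC box each. The TATA box TATAAA and the cyclic AMP response element TGACGTCA were also searched on both strands and had no match in the 3 windows. Among 32851 RefSeq windows of the same length, 32.7% held a GC box, 33.8% a CCAAT box, 12.4% the TATA box letters and 1.5% the response element. A match is a run of letters and not a shown binding site.

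The values are normalised log2 signals, where a difference of 1 is a doubling, and a probe set counts as detected above the authors' cutoff of 4.25. The signal of a probe set depends on its own probes, so levels are compared between mice and not between genes. The arrays had 24671 to 25371 detected probe sets, and 42 to 44 members were detected on each. Pearson correlations over all probe sets ran from 0.988 to 0.991 among the noise-exposed mice, from 0.975 to 0.985 among the unexposed mice and from 0.979 to 0.988 across the groups. The total RNA that went into amplification was 15, 18 and 10 ng for the noise-exposed mice, against 21, 8 and 8 ng for the unexposed mice.

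The dissected tissue carried the signals of neurons and glia, and markers of the stria and the ligament were split around the cutoff. Of the hair cell markers on the array, only Pvalb, which neurons also express, lay above it. Of 14 neuronal marker genes, 12 were tested, and all 9 Schwann and satellite glia markers present on the array were tested. The melanocyte genes Tyr, Dct, Tyrp1 and Mlana of the stria and the hair cell genes Myo7a, Otof, Atoh1 and Pou4f3 were above the cutoff on no array. Hgf and Cldn18 of the stria and ligament list were also above it on none. The other 6 genes of that list were tested: Mitf, Esrrb, Atp13a5, Otos and Coch were detected in every mouse and Slc26a4 in 4 mice.

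Of the potassium channel genes, 42 of 83 (50.6%) were detected on all 6 arrays, against 60.2% of all named genes. A further 37 (44.6%) were detected on no array, against 30.1% of all named genes. All 3 members of the Kv3 family, all 3 of the Kv4 family and all 3 Kv beta subunits were detected in every mouse. Fewer were seen among the silent Kv modifier subunits (2 of 9 on all arrays), which form channels only together with other Kv pores, the KCNE accessory subunits (1 of 5), the inward rectifiers (6 of 14) and the K2P channels (6 of 12). Among the Kv1 genes, Kcna1, Kcna2, Kcna4 and Kcna6 were detected on all arrays, and Kcna3, Kcna5 and Kcna7 on none.

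Kcnq1 and Kcne1, the pore and accessory subunit of the strial secretory channel, lay below the cutoff in all mice. Kcnq1 read 3.37, 3.32 and 3.87 in noise-exposed mice, against 3.49, 3.44 and 3.05 in unexposed mice. Kcne1 read 2.50, 2.53 and 2.70 in noise-exposed mice, against 2.55, 2.81 and 2.68 in unexposed mice. Both ranges overlapped between the groups.

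Near the cutoff, Kcng2 and Kcnt2 were detected in 1 mouse each and Kcnk13 in 2, whereas Kcnj1 was the undetected member that came closest, at 4.22 in noise-exposed replicate 2. Kcnn3 was detected in 4 mice and entered the test with the 42. At the authors' higher cutoff of 5.1, 35 members were detected on all 6 arrays. Taking any probe set of a gene gave 42.

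**Figure D1:**
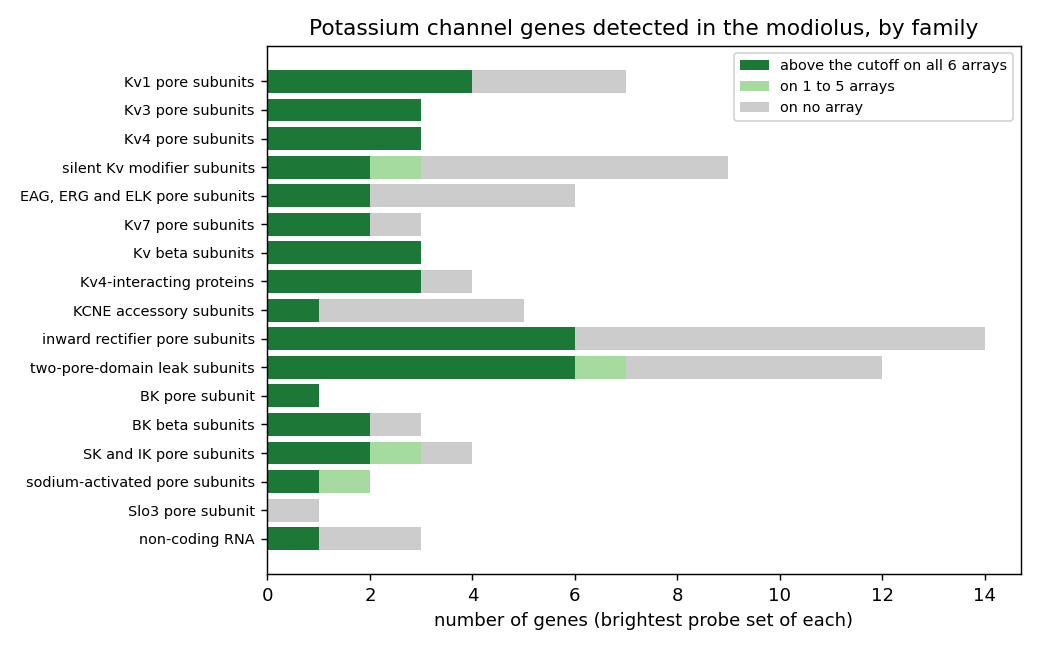
Number of potassium channel genes (horizontal axis) in each family (vertical axis), by whether the brightest probe set lay above the cutoff of 4.25 on all 6 arrays (dark green), on 1 to 5 (light green) or on none (grey). All Kv3, Kv4 and Kv beta genes are dark green, while 4 of 5 KCNE genes are grey.

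Of the 83 members, 43 were above the cutoff on at least 3 arrays and were tested for a difference between noise-exposed and unexposed mice. None passed an adjusted p of 0.05 (limma with Benjamini-Hochberg adjustment over all 25200 tested probe sets), and neither did any probe set of the array (0% of 25200). The lowest adjusted p of a member was 0.67, that of Kcnip2. At an unadjusted limma p under 0.05 there were 3 members with a higher signal in noise-exposed mice (Kcnip2, Kcnab3 and Kcnd1), 7% of the 43 against 4.98% of all tested genes. There were 2 with a lower signal (Kcnk3 and Kcnd2), 4.7% of the 43 against 1.21%. Without noise-exposed replicate 1, the mouse with the highest value of its group in 24 of the 43 members, no member had a higher signal at that unadjusted p, and 1 had a lower one. The higher count was 1 without unexposed replicate 1 and 5 without unexposed replicate 3. The lower count was 1 without noise-exposed replicate 3 or unexposed replicate 3. With day of dissection in the model 1 member was higher and 0 were lower. With sex in the model 3 were higher and 1 was lower. No share over all tested genes is given here for these other fits or for the highest mouse of a group. They are therefore not read as a trait of the members.

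The log2 difference, noise-exposed minus unexposed, was above 0 for 27 members and below 0 for 16. The share above 0 was 62.8%, against 63.3% of all tested genes, and the median difference was 0.12, against 0.07 over all tested genes. Differences ran from -0.77 (Kcnd2) to 0.51 (Kcnd1), and 9 members lay within 0.1 of 0. The standard error of a member's difference had a median of 0.19, and the largest was 0.68 (Kcnj16).

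In 6 tested members every noise-exposed value lay above every unexposed value (Kcnab3, Kcnd1, Kcnip2, Kcnj10, Kcnj14 and Kcnk15). These were 14% of those tested, against 10.4% of all tested genes. In 3 tested members every noise-exposed value lay below (Kcna2, Kcnd2 and Kcnk3), which is 7%, against 3.41% of all tested genes. With 3 mice against 3, a two-sided exact permutation test cannot give a p below 0.1 for any single gene.

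**Figure D2:**
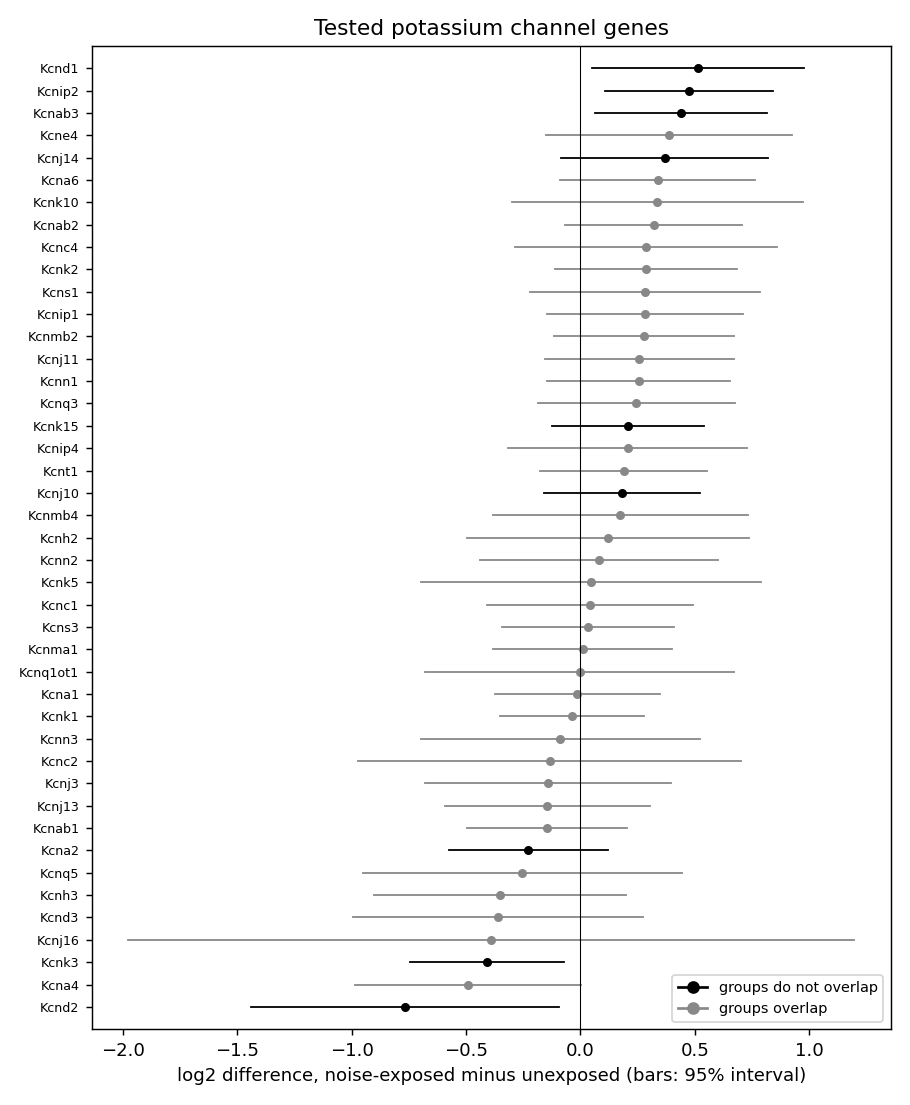
Log2 difference, noise-exposed minus unexposed, of each of the 43 tested potassium channel genes, with its 95% interval from limma as a bar. Black marks the 9 genes whose groups do not overlap; the intervals of 5 genes, Kcnip2, Kcnab3, Kcnd1, Kcnd2 and Kcnk3, leave out 0 before any adjustment.

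The Kv4 channel complex contained differences of both signs. Its pore genes are Kcnd1, Kcnd2 and Kcnd3, and its KChIP partners on the array are Kcnip1, Kcnip2, Kcnip3 and Kcnip4. Kcnd1 was higher and Kcnd2 lower in every noise-exposed mouse than in any unexposed mouse, and the 3 detected KChIP genes had differences above 0. No member of the complex passed the adjusted test.

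Kcnd2, the pore subunit that carries much of the somatodendritic A-type current in brain neurons, read 4.64, 5.14 and 4.89 in noise-exposed mice, against 5.22, 5.45 and 6.31 in unexposed mice. The groups did not overlap, and unexposed replicate 3 stood above the other two unexposed mice. The difference was -0.77 ± 0.29 (SE, n = 3 against 3; fold 0.59, 95% interval of the log2 difference -1.44 to -0.10; limma adjusted p = 0.70). Without unexposed replicate 3 it was -0.44. Against the unexposed mouse dissected on the same day it was -0.33, and against the unexposed female -0.56. The gene's other probe sets were detected in too few mice to be tested, and the groups overlapped in each of them.

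Kcnd1, another Kv4 pore subunit, read 5.71, 5.33 and 5.39 in noise-exposed mice, against 4.88, 5.30 and 4.70 in unexposed mice. The groups were separate, although noise-exposed replicate 2 and unexposed replicate 2 were nearly equal. The difference was 0.51 ± 0.20 (SE, n = 3 against 3; limma adjusted p = 0.70), and a second tested probe set of the gene gave 0.55 with overlapping groups. It was 0.60 against the unexposed mouse of the same day and 0.17 against the unexposed female. Kcnd3, the remaining pore subunit, read 8.38, 9.19 and 8.30 in noise-exposed mice, against 8.77, 9.34 and 8.84 in unexposed mice. Here the groups overlapped, and the difference was -0.36 ± 0.27 (SE). It was -0.15 against the unexposed mouse of the same day and -0.72 against the unexposed female. Leaving out noise-exposed replicate 1, 2 or 3 gave -0.24, -0.64 or -0.20, and leaving out unexposed replicate 2 gave -0.18.

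Kcnip2 encodes a KChIP, which brings Kv4 pores to the membrane, and had the lowest unadjusted p of the members. It read 6.59, 6.41 and 6.23 in noise-exposed mice, against 6.09, 5.83 and 5.89 in unexposed mice. All 3 noise-exposed values lay above the unexposed ones. The difference was 0.48 ± 0.16 (SE, n = 3 against 3; fold 1.39, 95% interval 0.11 to 0.84; limma adjusted p = 0.67). It was 0.32 against the unexposed mouse of the same day and 0.58 against the unexposed female. The gene's other probe sets lay below the cutoff in every mouse and were not tested, and the groups overlapped in each of them.

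The other KChIP genes were less clear between probe sets. Kcnip1 had a difference of 0.28 ± 0.18 (SE) at its brightest probe set, with overlapping groups. Its second probe set read 7.72, 7.45 and 7.26 in noise-exposed mice, against 6.94, 6.97 and 7.17 in unexposed mice, which do not overlap (difference 0.45 ± 0.17, limma adjusted p = 0.70), and a further one gave -0.13. Kcnip4 gave 0.21, 0.08 and -0.38 at its 3 tested probe sets. Kcnip3 was detected in no mouse. The transmembrane partners of Kv4 pores, Dpp6 and Dpp10, gave -0.17 and -0.38, with overlapping groups in both.

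Among the Kv1 channels of the axon, the differences of the brightest probe sets were small or overlapped, apart from Kcna2. Kcna2 read 10.20, 10.16 and 9.85 in noise-exposed mice, against 10.33, 10.31 and 10.25 in unexposed mice. The groups were separate, with noise-exposed replicate 3 the lowest. The difference was -0.23 ± 0.15 (SE; limma adjusted p = 0.75), but the gene's other tested probe set gave 0.16 ± 0.21 with overlapping groups. Without noise-exposed replicate 3 the difference was -0.12, and over the mean of both probe sets it was -0.03. Kcna1, which joins Kcna2 at the juxtaparanodes of myelinated axons, read 11.27, 11.34 and 11.12 in noise-exposed mice, against 11.47, 11.13 and 11.17 in unexposed mice. Its difference of -0.01 ± 0.16 (SE) had a 95% interval from -0.37 to 0.35, and its sign turned under a renewed quantile normalization (0.0073) and when arrays were centred on their medians (0.02).

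Kcna4, a Kv1 pore with A-type inactivation, read 6.04, 5.75 and 5.84 in noise-exposed mice, against 5.93, 6.51 and 6.66 in unexposed mice. Noise-exposed replicate 1 exceeded unexposed replicate 1, so the groups overlapped. The difference was -0.49 ± 0.21 (SE, n = 3 against 3; limma adjusted p = 0.70). Against the unexposed mouse of the same day it was -0.06, and against the unexposed female -0.63. Without unexposed replicate 1 it was -0.71.

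Kcna6, a further Kv1 pore, was detected by its second tested probe set in noise-exposed mice alone. That probe set read 4.80, 4.70 and 4.39 in noise-exposed mice, against 3.75, 3.99 and 4.07 in unexposed mice, all of them below the cutoff. Its difference was 0.69 ± 0.17 (SE, n = 3 against 3; limma adjusted p = 0.67). The brightest probe set of Kcna6 read 5.67, 5.69 and 5.24 in noise-exposed mice, against 5.33, 5.28 and 4.98 in unexposed mice, with 0.34 ± 0.18 (SE) and overlapping groups (0.21 against the unexposed mouse of the same day, 0.25 against the unexposed female). Being tested required detection on 3 arrays, so the second probe set entered through the noise-exposed group alone.

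The Kv beta subunits bind Kv1 pores and carry an oxidoreductase fold. Kcnab3 read 8.02, 7.65 and 7.92 in noise-exposed mice, against 7.39, 7.30 and 7.58 in unexposed mice. The groups were separate, and the lowest noise-exposed value lay just above unexposed replicate 3. The difference was 0.44 ± 0.16 (SE, n = 3 against 3; fold 1.36, 95% interval 0.07 to 0.82; limma adjusted p = 0.70), and its other tested probe set gave 0.45 with overlapping groups. Against the unexposed mouse of the same day it was 0.47, and against the unexposed female 0.57.

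Kcnab2, the beta subunit best known for axonal targeting of Kv1 channels, read 9.19, 8.71 and 8.94 in noise-exposed mice, against 8.72, 8.64 and 8.52 in unexposed mice. The groups overlapped, since the lowest noise-exposed value (8.71) lay below the highest unexposed value (8.72). Its difference was 0.32 ± 0.17 (SE), and its second tested probe set gave 0.24. Without noise-exposed replicate 1 the difference was 0.20. Kcnab1 gave -0.15 ± 0.15 with overlapping groups.

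**Figure D3:**
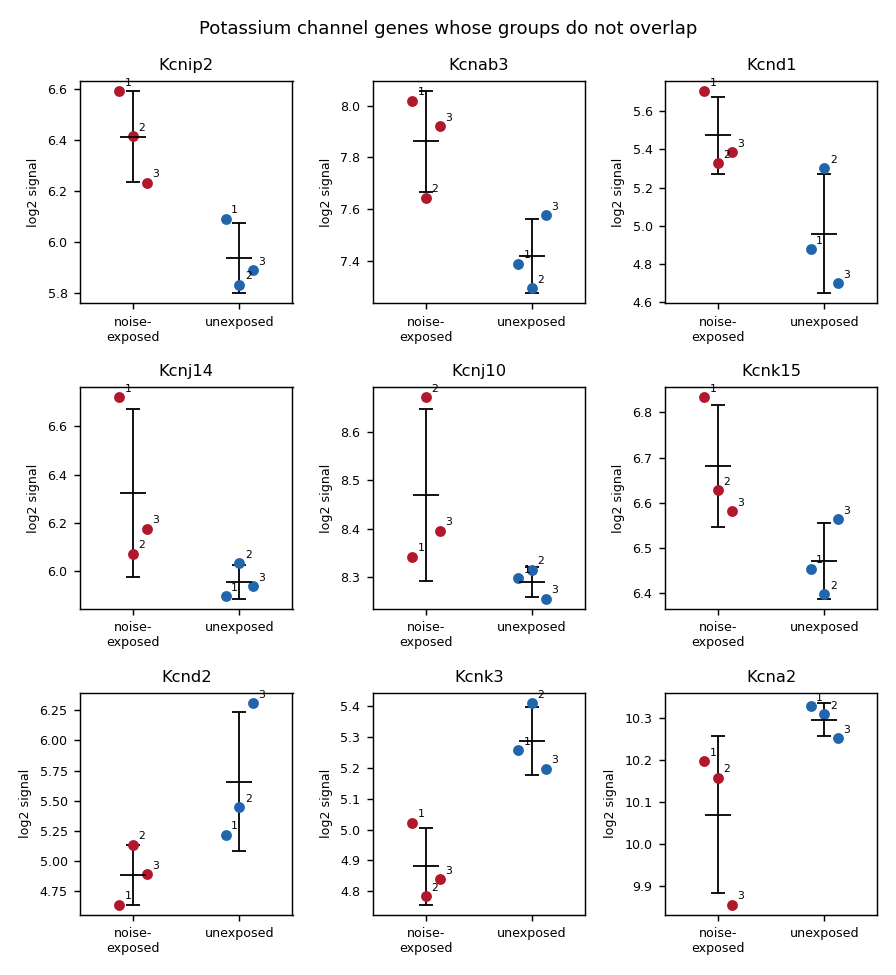
Log2 signal (vertical axis, a scale of its own per gene) of the 9 tested members whose groups do not overlap, with the noise-exposed mice in red and the unexposed mice in blue; numbers are replicates, and bars give the mean ± SD of 3 mice. Kcnip2 and Kcnk3 show the widest gaps between the groups, whereas all the other genes drawn are separated by hundredths of a log2 unit, Kcnk15 by the least.

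The brightest probe sets of all 3 Kv3 genes overlapped between the groups. Kcnc1, the fast delayed rectifier of auditory neurons, read 10.70, 10.61 and 10.35 in noise-exposed mice, against 10.79, 10.19 and 10.55 in unexposed mice. Its difference was 0.04 ± 0.19 (SE), with -0.24 against the unexposed mouse of the same day and 0.36 against the unexposed female. Its second tested probe set did not overlap and read 6.63, 6.53 and 6.30 in noise-exposed mice, against 6.14, 6.10 and 6.08 in unexposed mice (difference 0.38 ± 0.15 (SE), limma adjusted p = 0.70). The probe sets of Kcnc1 thus differed in whether the groups overlapped. Kcnc2 gave -0.13 ± 0.36 with a spread of 1.25 over the 6 mice, and Kcnc4 gave 0.29 ± 0.25.

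The tested probe sets of the Kv7, ERG and ELK genes also overlapped. Kcnq3, a subunit of the M current that restrains repetitive firing, read 7.33, 7.35 and 7.37 in noise-exposed mice, against 7.41, 6.76 and 7.14 in unexposed mice. The noise-exposed values were nearly identical, and the spread lay in the unexposed group. The difference was 0.24 ± 0.19 (SE), -0.06 against the unexposed mouse of the same day and 0.59 against the unexposed female. Without unexposed replicate 2 it was 0.07, and without unexposed replicate 1 it was 0.40. Kcnq5, which also forms M channels, gave -0.25 ± 0.30.

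Kcnh3, an ELK pore, read 5.67, 5.20 and 5.00 in noise-exposed mice, against 5.91, 5.27 and 5.75 in unexposed mice. These overlapped, with a difference of -0.35 ± 0.24 (SE), -0.62 against the unexposed mouse of the same day and 0.02 against the unexposed female. Leaving out noise-exposed replicate 1 or 3 gave -0.54 or -0.21, and leaving out unexposed replicate 1 or 2 gave -0.22 or -0.54. Kcnh2, the ERG pore, gave 0.12 ± 0.26. The modifiers Kcns1 and Kcns3 gave 0.28 and 0.03, and the accessory subunit Kcne4 gave 0.39 ± 0.23, all with overlapping groups.

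Among the inward rectifiers, Kcnj10 and Kcnj14 were separate between the groups by narrow margins. Kcnj10, the glial channel that clears potassium around neurons and that the stria needs for its endocochlear potential, read 8.34, 8.67 and 8.40 in noise-exposed mice, against 8.30, 8.32 and 8.25 in unexposed mice. The lowest noise-exposed value exceeded the highest unexposed value by little, and noise-exposed replicate 2 stood highest. The difference was 0.18 ± 0.15 (SE; limma adjusted p = 0.78), and without noise-exposed replicate 2 it was 0.08. Beside it, the mean log2 signal of 8 tested central glia markers was 8.09, 8.20 and 8.38 in noise-exposed mice, against 7.50, 8.18 and 8.04 in unexposed mice, and its part in the Kcnj10 values was not tested. In pooled tissue of this kind, fewer cells of a type and less RNA per cell cannot be told apart.

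Kcnj14, an inward rectifier described in cranial motor neurons of the rat, read 6.72, 6.07 and 6.18 in noise-exposed mice, against 5.89, 6.03 and 5.94 in unexposed mice. Noise-exposed replicate 1 carried most of the gap. The difference was 0.37 ± 0.20 (SE; limma adjusted p = 0.71), and without that mouse it was 0.17.

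Kcnj16, which can join Kcnj10 in 1 channel and is described in fibrocytes of the cochlear lateral wall, differed more between mice of the same group than any other tested member. It read 5.92, 6.11 and 8.40 in noise-exposed mice, against 6.25, 7.54 and 7.81 in unexposed mice, a range of 2.47 over the 6 mice. Noise-exposed replicate 3 was highest and noise-exposed replicates 1 and 2 lowest, so the groups overlapped throughout. The difference was -0.39 ± 0.68 (SE, 95% interval -1.98 to 1.20), 0.56 against the unexposed mouse of the same day and -0.73 against the unexposed female. Without noise-exposed replicate 3 it was -1.18.

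Otos, a secreted protein of spiral ligament fibrocytes, read 8.31, 8.82 and 10.66 in noise-exposed mice, against 8.67, 8.61 and 9.80 in unexposed mice. In both genes replicate 3 was the highest of each group. Otos was picked after its values were seen, and of the 6 tested stria and ligament genes it shared this order with Slc26a4 alone. Coch, another ligament gene, read 12.78, 12.59 and 12.57 in noise-exposed mice, against 12.71, 12.34 and 12.61 in unexposed mice, so that it was highest in replicate 1 of each group. The mice with the higher Kcnj16 values, noise-exposed replicate 3 and unexposed replicates 2 and 3, were also those with the lowest RNA input (10, 8 and 8 ng). The part of either in the Kcnj16 values was not tested. Across all 43 tested members, 10 (23.3%) spanned more than 1 log2 unit over the 6 mice, against 15.1% of all tested genes.

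**Figure D4:**
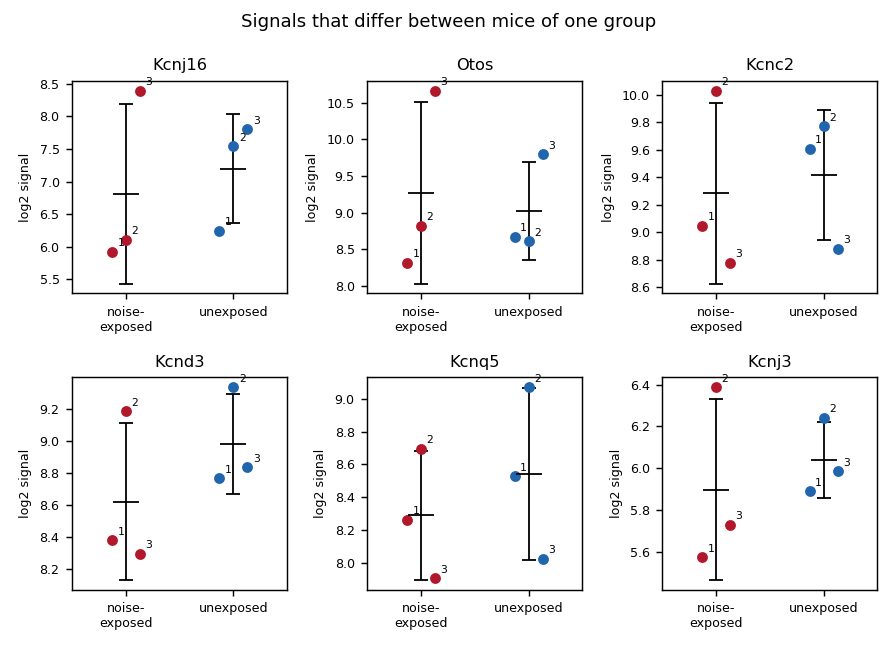
Log2 signal (vertical axis, a scale of its own per gene) of Kcnj16, the ligament gene Otos and 4 further members that varied between mice, with noise-exposed mice in red and unexposed mice in blue; numbers are replicates, and bars give the mean ± SD of 3 mice. Kcnj16 and Otos are highest in replicate 3 of each group, unlike the ligament gene Coch, which is not drawn. Kcnc2, Kcnd3, Kcnq5 and Kcnj3 come from the 8 members highest in replicate 2 of each group, a list made after their values were seen.

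The remaining tested inward rectifiers overlapped between the groups. Kcnj2, below the cutoff in every mouse and not tested, read lower in the noise-exposed mice without overlap. Kcnj11, the pore of the ATP-sensitive channel, gave 0.26 ± 0.18, Kcnj13 -0.14 ± 0.19 and Kcnj3, a G-protein-gated pore, -0.14 ± 0.23 (SE each). The sulfonylurea receptors Abcc8 and Abcc9, partners of Kcnj11, gave 0.38 and 0.30.

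Of the K2P leak channels, Kcnk3 was lower and Kcnk15 higher in every noise-exposed mouse than in any unexposed mouse. Kcnk3 encodes the acid-sensitive channel TASK-1 and read 5.02, 4.78 and 4.84 in noise-exposed mice, against 5.26, 5.41 and 5.20 in unexposed mice. The gap between the groups exceeded the SD within each. The difference was -0.41 ± 0.14 (SE, n = 3 against 3; fold 0.75, 95% interval -0.74 to -0.07; limma adjusted p = 0.69), with -0.38 against the unexposed mouse of the same day and -0.53 against the unexposed female. Leaving out any 1 mouse kept it between -0.48 and -0.35. The single tested probe set of Kcnk3 leaves it without a check from another.

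Kcnk15, a relative of Kcnk3, read 6.83, 6.63 and 6.58 in noise-exposed mice, against 6.45, 6.40 and 6.56 in unexposed mice. The margin between noise-exposed replicate 3 and unexposed replicate 3 was hundredths of a unit, and the difference was 0.21 ± 0.14 (SE). At its brightest probe set Kcnk1 was the steadiest tested member, with a range of 0.19 over the 6 mice. Its difference there was -0.04 ± 0.14 (95% interval -0.35 to 0.28). Another tested probe set of Kcnk1 gave 0.18 ± 0.16, with a range of 0.52 and overlapping groups. Kcnk2, a mechanically and lipid-gated channel, gave 0.29 ± 0.17, Kcnk10 0.34 ± 0.27 and Kcnk5 0.05 ± 0.32, all overlapping.

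All tested probe sets of the calcium- and sodium-activated channels overlapped between the groups. Below the cutoff, an untested probe set of Kcnn1 read lower in every noise-exposed mouse than in any unexposed mouse. Kcnma1, the BK pore, read 8.83, 8.40 and 8.55 in noise-exposed mice, against 8.40, 8.65 and 8.69 in unexposed mice. Its difference was 0.01 ± 0.17 (SE, 95% interval -0.38 to 0.40), its other tested probe sets reached from -0.06 to 0.27, and a renewed quantile normalization turned its sign (-0.02). The BK beta subunits Kcnmb2 and Kcnmb4 gave 0.28 ± 0.17 and 0.17 ± 0.24. Kcnn1, Kcnn2 and Kcnn3, the SK pores that follow action potentials with a calcium-driven current, gave 0.25, 0.08 and -0.09, and the sodium-activated pore Kcnt1 gave 0.19 ± 0.16.

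Kcnq1ot1, the imprinted long non-coding RNA that overlaps Kcnq1, was detected although Kcnq1 was not. Its brightest probe set gave -0.0018 ± 0.29 (SE), and its 4 tested probe sets ranged from -0.70 to 0.14. More generally, 14 members had several tested probe sets, and in 8 of them the probe sets differed in sign. Over all tested genes with several, 49.9% of 5262 did.

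Genes of the proteins that hold potassium channels in place had differences near 0 on balance. Of 20 tested axonal and membrane partners, such as Cntnap2, which clusters Kv1 channels beside the node, 7 had a difference above 0 and 13 below, with a median of -0.03, against 0.07 for all tested genes. None passed an adjusted p of 0.05 (limma). Cntnap2 gave -0.05 ± 0.14 and Cntn2, its partner on the axon and glial membrane, 0.43 ± 0.19. When arrays were centred on their medians the median of this list was 0.0028.

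Of 12 tested genes of potassium transport and pumps, 10 had a difference above 0 and 2 below. Their median was 0.15, and none passed the adjusted test. Over all tested genes 63.3% had a difference above 0, and the median was 0.07. Slc12a7, a potassium-chloride cotransporter, read 10.72, 10.67 and 10.48 in noise-exposed mice, against 10.37, 10.31 and 10.36 in unexposed mice, without overlap (0.28 ± 0.14, limma adjusted p = 0.71). Slc12a2, the sodium-potassium-chloride cotransporter, gave -0.0043 ± 0.14, and Aqp4, the glial water channel found beside Kcnj10, 0.23 ± 0.25.

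Marker lists of the cells around the neurons were measured on the same arrays. Differences above 0 were seen in 10 of 12 neuronal, 5 of 9 Schwann and satellite glia, 7 of 8 central glia, 5 of 6 stria and ligament, 3 of 8 smooth muscle and pericyte, 5 of 7 endothelial, 5 of 6 bone and 7 of 7 macrophage markers. The medians were 0.10, 0.03, 0.29, 0.17, -0.14, 0.08, 0.23 and 0.18 in that order, and no marker passed the adjusted test. Across all tested genes the share above 0 was 63.3% and the median was 0.07. Among hair cell markers only Pvalb, which neurons also express, was tested (0.01), and among skeletal muscle markers only Myl1 (0.24). The part of these cells in the channel values was not tested.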

How the data were processed

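Messenger RNA of 6 mice was measured with 1 Affymetrix array each. The authors deposited log2 signals, made per their deposited code by robust multi-array averaging (background correction, quantile normalization and a summary per probe set) in R 2.6.1 with Bioconductor release 2.1; a shift common to most transcripts would not show in such values. Arrays have no read depth; precision is limited by their number. The labels describe separate animals. Total RNA of 8 to 21 ng was amplified, which can widen the spread between arrays.

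Of 45101 probe sets, 34958 had 1 gene symbol, 932 several and 9211 none; symbols were updated by Entrez ID to RefSeq (34754 probe sets, all 166 of the members). Probe sets above 4.25 on at least 3 arrays, without 64 controls, were tested (25200, for 11858 genes) by lmFit and eBayes of limma 3.58.1 under R 4.3.3 (two-sided, no covariates, Benjamini-Hochberg over all). The procedure was tested on simulated data. The genes described in full are for each direction the 6 tested members of lowest unadjusted p, a list of channels known from auditory neurons, glia and stria, and members detected in 1 group; others appear by family. Members and lists were chosen with earlier results of these data known. Alternatives changed the filter, normalization, variance model, covariates (sex, day, RNA input), mice and probe sets. Promoter windows came from RefSeq (GRCm38.p6).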

Additional observations from a re-analysis of the deposited data

How the results depend on the processing

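The number of potassium channel genes with an adjusted limma p under 0.05 was 0 under all 18 alternatives. The count at an unadjusted p under 0.05 was less steady. For a higher signal in noise-exposed mice it was 3, and it became 1 with day of dissection in the model and 5 with the first day alone, which leaves a single unexposed mouse assumed to vary like the others. For a lower signal it was 2, and it became 4 with no filter on signal, 1 with an intensity trend in the variance model, 1 with sex in the model, and 0 with day in the model or the first day alone. Leaving out each mouse in turn gave 0 to 5 higher and 1 to 3 lower. Genes without overlap then numbered 7 to 11 higher and 3 to 6 lower, partly because fewer mice overlap less often. Shares over all tested genes are not given for these settings, so whether such changes are particular to the members was not tested. There were 11 higher without noise-exposed replicate 3, 10 without unexposed replicate 1 or 3, and 6 and 5 lower without noise-exposed replicates 2 and 1. The median difference of 0.12 ranged from 0.02 with no filter on signal to 0.18 without noise-exposed replicate 3.

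Of 324 recomputed differences of 18 described genes, 24 turned sign. Kcnh3 was 0.0232 with sex in the model or in females alone. Kcna1 was 0.0073 after renewed quantile normalization, 0.0207 with arrays centred on their medians, 0.0188 over the mean of its probe sets and 0.1149 with sex in the model or in females alone, and leaving out 1 mouse gave -0.0768 to 0.0938 (0.0477 without noise-exposed replicate 3, 0.0938 without unexposed replicate 1). Kcnc1 was -0.2385 with day in the model or on the first day alone, -0.0232 with RNA input in the model, and leaving out 1 mouse gave -0.1153 (without unexposed replicate 2) to 0.1852, with -0.0287 without noise-exposed replicate 1. With day in the model or on the first day alone, Kcnq3 was -0.0601 and Kcnj16 was 0.5625; leaving out 1 mouse moved Kcnj16 between -1.183 and 0.0533 (without noise-exposed replicate 1). Kcnma1 was -0.0188 after renewed quantile normalization, -0.055 with sex in the model or in females alone, and leaving out 1 mouse gave -0.1076 (without noise-exposed replicate 1) to 0.1058, with -0.0787 without unexposed replicate 1. The cause was not tested in any of these. Mice with the same replicate number did not deviate together (correlations of 0.09, 0.03 and -0.04), so the numbers do not pair them; with the replicate number as a block there were again 0 adjusted calls, 3 higher and 2 lower at the unadjusted p, and a median of 0.12.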

Other observations

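The mouse with the highest signal of its group was counted for every tested member. Of the 43 tested members, 24 were highest in noise-exposed replicate 1, 15 in replicate 2 and 4 in replicate 3, against 15, 15 and 13 in unexposed replicates 1, 2 and 3. In 8 members replicate 2 was the highest of both groups: Kcnab1, Kcnc2, Kcnd3, Kcnip4, Kcnj10, Kcnj3, Kcnk10 and Kcnq5, a list made after their values were seen. That order was not the most frequent. Replicate 1 was the highest of both groups in 9 members, and noise-exposed replicate 1 with unexposed replicate 3 in another 9. The same counts over all tested genes are not given, so none of these is read as a trait of the members. Kcnc2, a Kv3 pore, read 9.05, 10.03 and 8.78 in noise-exposed mice, against 9.61, 9.77 and 8.88 in unexposed mice. Kcnq5 read 8.26, 8.69 and 7.91 in noise-exposed mice, against 8.53, 9.07 and 8.03 in unexposed mice. Kcnk5, a K2P channel, read 5.66, 5.59 and 5.65 in noise-exposed mice, against 5.13, 5.24 and 6.40 in unexposed mice, so that its spread lay almost wholly in unexposed replicate 3.

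Kcnq1ot1 disagreed between its own probe sets. The brightest read 9.62, 9.00 and 9.15 in noise-exposed mice, against 8.68, 9.35 and 9.74 in unexposed mice. Another read 6.83, 6.41 and 4.79 in noise-exposed mice, against 7.16, 6.21 and 6.77 in unexposed mice, with a range of 2.36 over the 6 mice.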
